A study of Homo sapiens with 6 samples.

Results

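The genes described here are 10 detoxification and antioxidant genes, the NRF2 targets NQO1, HMOX1, GCLC, GCLM, TXNRD1, SRXN1 and SLC7A11 and the aldo-keto reductase genes AKR1C1, AKR1C3 and AKR1B1. They were taken as all probes that the platform annotation assigns to these symbols, which gave 13 of the 47231 probes on the array, for 9 of the 10 genes. AKR1B1 had no uniquely named probe and was not analysed here. The samples were SK-Hep1 cells, a long-used human liver tumour line, 3 days after transfection with siRNA against YAP1 and TAZ (siYAP&TAZ in the labels, 3 samples, called knockdown below) or with a control siRNA (siLuc, 3 samples, called control below). Both groups were transfected, 1 cell line and 1 time point were used, and the siRNA sequences were not used here. RNA was hybridised to 1-colour Illumina bead arrays, 1 array per sample. Whether replicates are separate cultures is not stated in the labels. The p-values therefore reflect the spread among these 6 arrays, which could be technical alone.

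YAP1 and TAZ (encoded by WWTR1) are transcriptional co-activators that act mainly through TEAD factors. NRF2, encoded by NFE2L2, is a transcription factor that KEAP1 marks for degradation in unstressed cells. When oxidants or electrophiles modify KEAP1, NRF2 accumulates, pairs with small MAF proteins and binds the antioxidant response element in its target genes, from which BACH1 can displace it. Its targets build and recycle glutathione and thioredoxin, break down heme and reduce quinones and carbonyls.

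Median bead intensity ranged between 62.2 and 82.95, and each array had between 13620 and 16827 probes above its estimated background. The number of arrays limits the precision. Probes above background on at least 3 arrays, 15899 in all, were tested, and a gene was represented by its brightest such probe, which left 9718 genes. Values below are normalised log2 intensities unless called intensities, changes are knockdown minus control on that scale, and a gene passed at a limma adjusted p under 0.05. The siRNA targets were lower in the knockdown samples. YAP1 read 8.40, 8.31 and 8.40 in knockdown samples, against 10.75, 10.83 and 10.76 in control samples, and fell 5.32-fold. WWTR1 read 5.40, 5.43 and 5.84 in knockdown samples, below background on each array, against 7.41, 7.32 and 7.44 in control samples, and fell at least 2.34-fold. Hepatocyte markers were mostly not above background, with 2 of 7 genes with a probe (ALB and SERPINA1) tested, and none of the 8 endothelial markers was tested. The summed intensity of the hepatocyte probes was 2329 to 2685 in knockdown samples and 1621 to 1866 in control samples. It was 458 to 479 in knockdown samples and 490 to 553 in control samples for endothelial probes, and 5340 to 6256 in knockdown samples and 5971 to 7221 in control samples for leukocyte probes. These sums are not normalised, and no endothelial probe was above background on any array. The estimated background of the arrays was 56.8 to 64.8 in knockdown samples and 59.0 to 75.9 in control samples. Of 7 leukocyte genes with a probe, CD14, CD68, ITGB2 and AIF1 were tested. Markers of a list moved in opposite directions, with SERPINA1 2.83-fold higher and ALB 1.40-fold lower, and CD14 3.21-fold higher and ITGB2 1.43-fold lower. AIF1 did not pass. CD68 did not pass by its brightest probe (-0.05), although its 2 other tested probes had changes of 0.62 and 1.51. The part of these markers in the results below was not tested.

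Of the 10 genes, 7 had a tested probe, 2 (SLC7A11 and AKR1C1) had none above background and AKR1B1 had no uniquely named probe. AKR1C3 and SRXN1 rose, HMOX1 and GCLM fell, and NQO1, GCLC and TXNRD1 did not pass. The list therefore did not move one way, with HMOX1 at -1.10 and AKR1C3 at no less than 1.21. The 4 of 7 genes that passed (57.1%) stand beside 54.8% of all genes tested, and the 2 higher and 2 lower beside 27.4% higher and 27.4% lower of all genes. Among the 9 tested probes, 2 were higher and 3 lower, where 52.2% of all tested probes passed, 26.6% higher and 25.6% lower. Groups did not overlap for 5 of the 7 genes, 3 higher and 2 lower, where 62.4% of all genes did not overlap (31.5% lower). Their median change was 0.04, beside 0.0017 for all genes. AKR1C3 entered the test through the knockdown arrays alone, so these counts are a description. In these bulk samples, fewer cells of a type and less RNA per cell cannot be told apart.

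**Figure D1:**
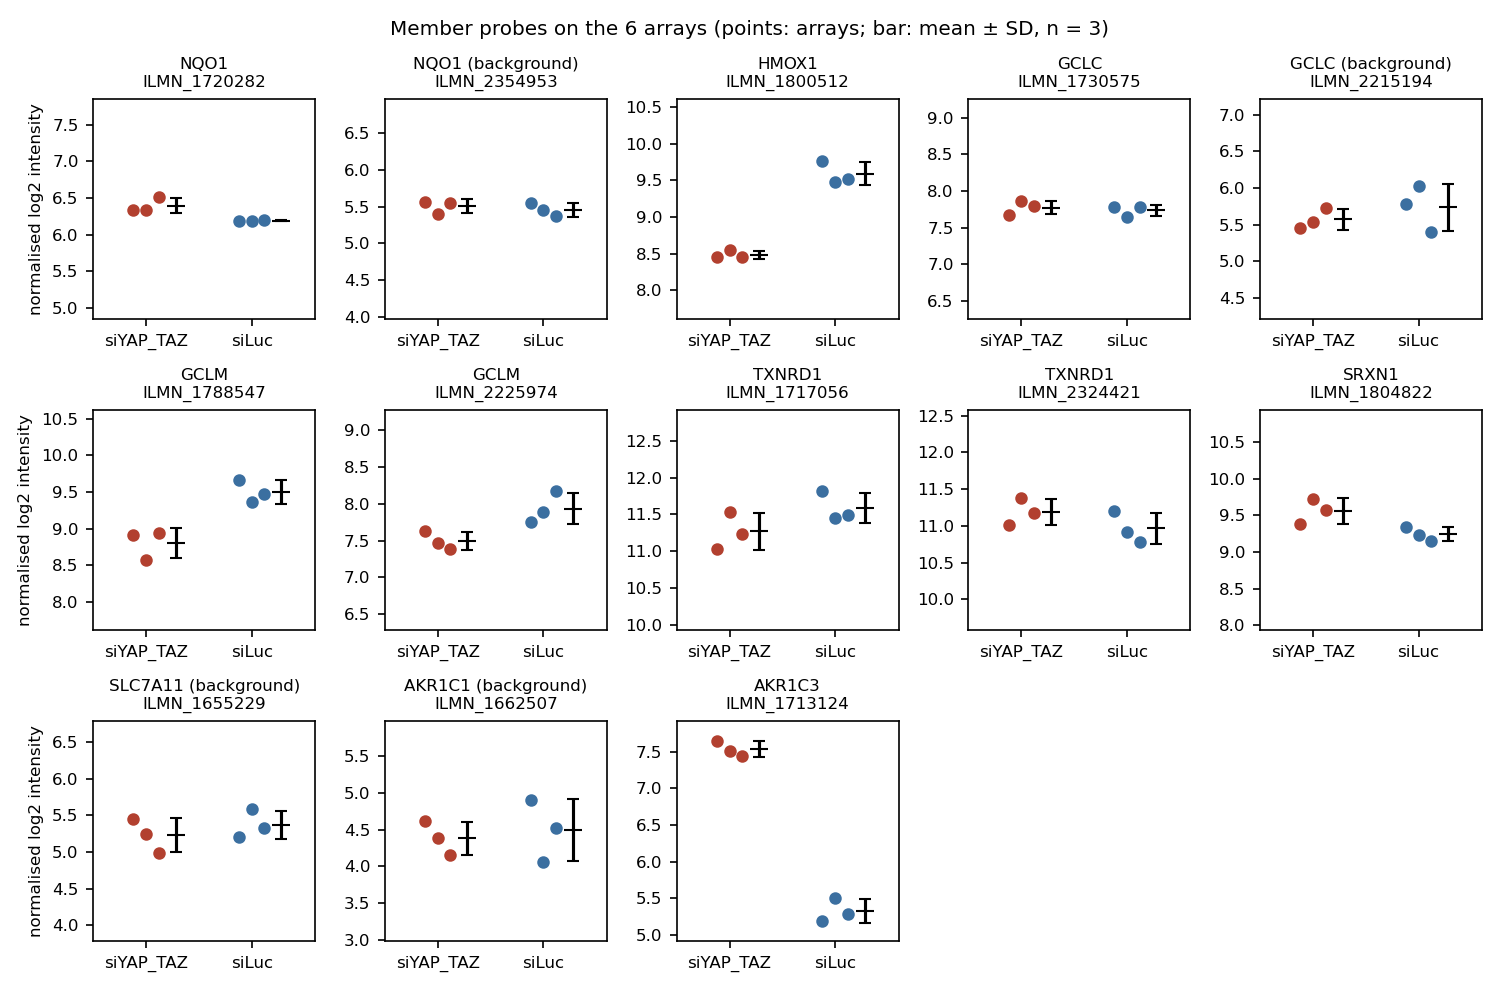
Normalised log2 intensity (y axis) of each of the 13 probes on the 6 arrays, with knockdown (siYAP_TAZ) left of control (siLuc). Points are arrays and the bar beside them is the mean with its SD (n = 3 per group), every panel spans the same number of log2 units, and probes headed background were above it on no array. AKR1C3, SRXN1 and the main NQO1 probe lie higher, and HMOX1 and both GCLM probes lower, on all 3 knockdown arrays than on any control array. The nearest values are 0.04 apart for SRXN1 and 0.13 apart for NQO1.

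Promoter windows are shown for GCLM and TXNRD1, whose windows held the antioxidant response element core, and for AKR1C3, the gene with the largest change. The RefSeq table used here (GRCh38.p14) gave 11 promoter windows for 8 of the 10 genes, HMOX1 and SLC7A11 being the others, and the 250 bases before each start site were searched on both strands. The core searched was TGACNNNGC, which 3 of the 11 windows held, against 10.9% of all 35116 windows of that length. The 11 windows are not all separate promoters, as TXNRD1, AKR1C3 and AKR1B1 had several each and those of AKR1B1 overlap. The AP-1 site TGANTCA was in 0 of the 11 windows and in 6.57% of all. The TEAD site GGAATG was in 1, the SRXN1 window, and in 11.9% of all. A match describes letters only. Capitals mark the antioxidant response element core, which overlapped none of the other motifs, and each sequence runs 5′ to 3′ on the strand of its gene.
GCLM, chr1:93909431-93909680, minus strand: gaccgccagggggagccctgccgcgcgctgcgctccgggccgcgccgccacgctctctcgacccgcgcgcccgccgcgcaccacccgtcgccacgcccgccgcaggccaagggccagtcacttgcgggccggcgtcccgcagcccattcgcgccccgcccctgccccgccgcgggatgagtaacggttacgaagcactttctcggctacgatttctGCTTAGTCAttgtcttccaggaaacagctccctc
TXNRD1, first start, chr12:104215529-104215778, plus strand: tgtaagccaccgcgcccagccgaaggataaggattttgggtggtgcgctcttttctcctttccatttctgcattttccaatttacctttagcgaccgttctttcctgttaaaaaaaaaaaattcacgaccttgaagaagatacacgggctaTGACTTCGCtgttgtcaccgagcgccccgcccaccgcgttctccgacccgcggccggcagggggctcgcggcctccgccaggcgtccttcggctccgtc
TXNRD1, second start, chr12:104286782-104287031, plus strand: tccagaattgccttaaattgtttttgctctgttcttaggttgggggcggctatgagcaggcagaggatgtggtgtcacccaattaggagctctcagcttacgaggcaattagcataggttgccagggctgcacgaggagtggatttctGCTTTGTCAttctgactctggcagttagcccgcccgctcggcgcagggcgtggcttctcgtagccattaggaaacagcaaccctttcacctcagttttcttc
AKR1C3, first start, chr10:5048531-5048780, plus strand: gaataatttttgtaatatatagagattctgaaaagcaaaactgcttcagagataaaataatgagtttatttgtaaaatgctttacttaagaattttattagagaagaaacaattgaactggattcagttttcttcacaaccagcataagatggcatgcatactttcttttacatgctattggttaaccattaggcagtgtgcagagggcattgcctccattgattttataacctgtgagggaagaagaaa
AKR1C3, second start, chr10:5094164-5094413, plus strand: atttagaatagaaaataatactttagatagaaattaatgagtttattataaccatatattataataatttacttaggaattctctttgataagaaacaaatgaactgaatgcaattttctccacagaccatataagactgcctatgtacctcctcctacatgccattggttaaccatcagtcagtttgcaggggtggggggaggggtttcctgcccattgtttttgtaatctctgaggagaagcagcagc
The GCLM match begins 34 bases before the start site, in the opposite orientation (GCTTAGTCA). The TXNRD1 matches begin 99 bases before the first start site (TGACTTCGC) and 102 bases before the second (GCTTTGTCA, opposite orientation). The windows of NQO1, GCLC, SRXN1, AKR1C1, AKR1C3 and AKR1B1 held no such letters, and bases outside the windows of 250 were not searched.

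HMOX1, on chromosome 22 (35381096 to 35394207), encodes the inducible heme oxygenase that opens the heme ring to biliverdin, iron and carbon monoxide. Its levels were 8.45, 8.55 and 8.46 in knockdown samples, against 9.77, 9.48 and 9.52 in control samples. Every knockdown array lay below every control array, with 0.92 between the nearest values. HMOX1 fell 2.14-fold, a change of -1.10 ± 0.11 (SE, n = 3 per group, limma adjusted p = 9.01e-06). Its intensities before processing averaged 327.8 in knockdown samples and 945.4 in control samples. Among the 9718 genes it was number 461 in the order of falls.

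Glutamate-cysteine ligase, the rate-limiting enzyme of glutathione synthesis, has a catalytic subunit, GCLC, and a modifier subunit, GCLM, and the genes of the subunits gave different values. The main probe of GCLM, on chromosome 1 (93885199 to 93909430), read 8.91, 8.57 and 8.94 in knockdown samples, against 9.67, 9.36 and 9.47 in control samples. GCLM fell 1.62-fold by that probe (change -0.69 ± 0.13 SE, limma adjusted p = 0.00086). All 3 knockdown arrays were below the controls. The other GCLM probe read 7.63, 7.46 and 7.39 in knockdown samples, against 7.75, 7.89 and 8.17 in control samples. It also kept the groups apart, by 0.12, and fell 1.36-fold (change -0.44 ± 0.12 SE, limma adjusted p = 0.0117). Without the detection filter the same change had an adjusted p of 0.0636. The main GCLC probe (chromosome 6, 53497341 to 53545101) read 7.67, 7.86 and 7.79 in knockdown samples, against 7.78, 7.65 and 7.78 in control samples. Its groups overlapped and its change was 0.04, with a 95% interval from -0.18 to 0.26 (limma adjusted p = 0.77). A fall of the size seen for GCLM lies outside that interval. The other GCLC probe was not above background on any array.

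SLC7A11, on chromosome 4 (138164097 to 138242349), encodes the cystine importer that supplies cysteine for glutathione. Its only probe was not well above background on any of the 6 arrays, with intensities of 56.94, 57.48 and 49.76 in knockdown samples and 60.63, 62.4 and 67.97 in control samples. No fold is given for it. SLC3A2, which encodes the heavy chain that partners this transporter and several other amino acid carriers, fell 1.58-fold (change -0.66 ± 0.0956 SE, limma adjusted p = 0.000162), and its other tested probe had a change of -0.20.

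TXNRD1 encodes the cytosolic thioredoxin reductase, which uses NADPH to keep thioredoxin reduced. It spans 104215779 to 104350307 on chromosome 12, and its 2 probes, which the annotation lists under different transcripts, had changes of opposite sign. The probe ILMN_1717056 read 11.03, 11.54 and 11.23 in knockdown samples, against 11.82, 11.45 and 11.49 in control samples (change -0.32 ± 0.15 SE, limma adjusted p = 0.0902). The probe ILMN_2324421 read 11.01, 11.38 and 11.17 in knockdown samples, against 11.20, 10.92 and 10.78 in control samples (change 0.22 ± 0.13 SE, limma adjusted p = 0.191). Neither passed and both sets of groups overlapped. The change of ILMN_2324421 was 0.13 to 0.34 with single arrays left out and 0.03 under median scaling (each array brought to the same median in place of quantile normalisation). On each array, however, the first probe minus the second was smaller after knockdown, at 0.02, 0.17 and 0.06 in knockdown samples, against 0.62, 0.53 and 0.71 in control samples. The mean of this within-array difference was 0.08 ± 0.08 in knockdown samples and 0.62 ± 0.09 in control samples (SD, n = 3 each), so that the 2 changes differed by -0.54. An exact two-sided permutation test gave p = 0.1, the smallest it can give with 3 against 3, and 0.2 after Benjamini-Hochberg adjustment over the 2 genes tested this way. The GCLM probes, treated alike, differed by -0.25 with overlapping groups (exact permutation p = 0.4), and that difference was between -0.38 (without control replicate 3) and -0.07 (without control replicate 1) with single arrays left out. Which TXNRD1 transcripts each probe reads was not examined here. The call on ILMN_1717056 depended on knockdown replicate 2, without which its change was -0.45 (adjusted p = 0.0174), and under median scaling it was -0.47 (adjusted p = 0.0415), or -0.36 relative to all genes.

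**Figure D2:**
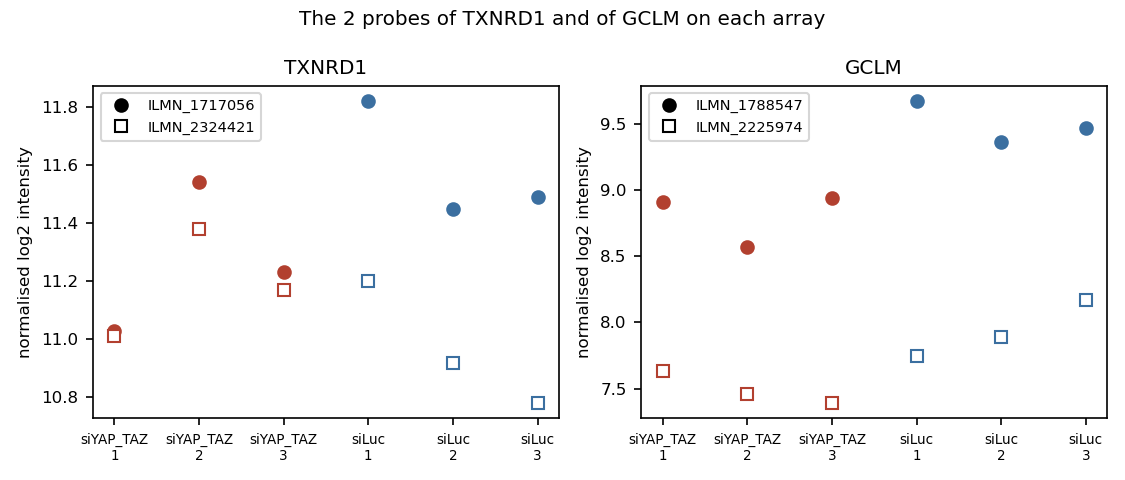
Normalised log2 intensity (y axis) of the 2 probes of TXNRD1 (left) and of GCLM (right) on each array, knockdown arrays in red left of control arrays in blue; filled circles are the main probe and open squares the other probe. The TXNRD1 probes lie 0.02 to 0.17 apart on the knockdown arrays and 0.53 to 0.71 apart on the control arrays, while both GCLM probes are lower on the knockdown arrays.

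SRXN1, on chromosome 20 (646615 to 653200), encodes sulfiredoxin, which repairs overoxidised peroxiredoxins. Its probe read 9.38, 9.72 and 9.57 in knockdown samples, against 9.34, 9.23 and 9.15 in control samples. The groups did not overlap, though only 0.04 separated the nearest arrays. SRXN1 rose 1.24-fold (change 0.32 ± 0.11 SE, limma adjusted p = 0.0361). Before normalisation its mean intensity was 655.9 in knockdown samples and 742.3 in control samples. The rise is thus relative to the other genes on the arrays. With arrays scaled to a common median, which put the median change of all genes at -0.11, it was 0.10, or 0.21 relative to that median (adjusted p = 0.728), in a fit that gave each gene named here the same SE of 0.19. Its call was lost without knockdown replicate 2 (0.24, adjusted p = 0.113) or 3 (0.31, 0.0894) and without control replicate 2 (0.31, 0.0877) or 3 (0.27, 0.109), and in the model with replicate number as a block (0.32, 0.0606).

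NQO1, on chromosome 16 (69709401 to 69726560), encodes a quinone reductase and is among the most used readouts of NRF2 activity. Its main probe was close to background, above it on 2 knockdown arrays and 1 control array. It read 6.33, 6.34 and 6.52 in knockdown samples, against 6.19, 6.18 and 6.20 in control samples. All knockdown arrays were higher, but the change of 0.21 ± 0.0979 (SE; 95% interval -0.0090 to 0.42) did not pass (limma adjusted p = 0.0999). Mean intensities were 96.7 in knockdown samples and 100.04 in control samples, and the other NQO1 probe was not above background on any array.

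**Figure D3:**
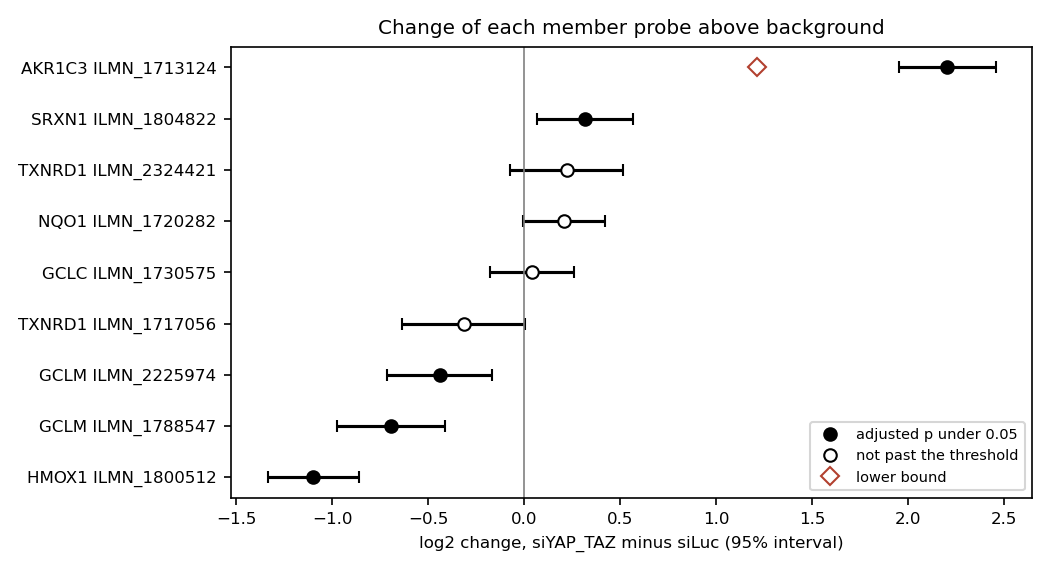
Log2 change, knockdown minus control (x axis), of the 9 tested probes, with 95% intervals from the limma fit on 3 arrays per group; filled points passed an adjusted p of 0.05, open points did not, and the diamond is the lower bound for AKR1C3. AKR1C3 and SRXN1 lie to the right of 0 and HMOX1 and both GCLM probes to the left, while the intervals of NQO1, GCLC and both TXNRD1 probes include 0.

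Aldo-keto reductases reduce aldehydes and ketones with NADPH, and the AKR1C enzymes act on steroids and prostaglandins. AKR1C3, on chromosome 10 (5048781 to 5107686), encodes an enzyme that forms testosterone and prostaglandin F. Its levels were 7.65, 7.51 and 7.44 in knockdown samples, against 5.19, 5.51 and 5.29 in control samples. The corresponding intensities were 191.5, 178.3 and 177.4 in knockdown samples, against 60.2, 60.63 and 66.42 in control samples. The probe was above background on all 3 knockdown arrays and on 0 of the 3 control arrays, so it entered the test through the group in which it was high. AKR1C3 rose at least 2.31-fold, with the fitted change at 2.20 ± 0.11 (SE, limma adjusted p = 1.01e-07). The fitted change, which is no exact value against a group at background, was between 1.56 and 2.27 over the settings run, the lowest with a background offset of 50, and it passed in each that tested it. A setting that required detection on all 6 arrays left the probe out.

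The gene copies most like AKR1C3 lie beside it on chromosome 10, and AKR1C probes may read related copies. AKR1C1 (4963415 to 4983283) had 1 probe, with intensities of 42.89, 39.16 and 37.44 in knockdown samples and 51.4, 33.2 and 43.62 in control samples, not well above background on any array. All 6 probes of AKR1C2 were likewise not well above background on any array, with intensities of 48.0 to 82.0 in knockdown samples and 52.4 to 101 in control samples. AKR1C4 rose at least 1.27-fold by 1 of its 2 probes (fitted change 0.75 ± 0.12 SE, limma adjusted p = 0.000311). That probe read 108.3, 124.1 and 100.8 in knockdown samples, above background on all 3 arrays, against 85.59, 72.68 and 100.5 in control samples, above it on none. Like AKR1C3, it thus entered the test through the group in which it was high, so its call is a description. In replicate 3 the intensities were alike, at 100.8 and 100.5, with background thresholds of 77.8 for knockdown and 128.3 for control. Requiring detection on all 6 arrays left this probe out. The other AKR1C4 probe was at background throughout. Of the 11 further aldo-keto reductase and related genes with a named probe, 4 were measured, of which AKR1C4 rose and AKR7A3, which reduces aflatoxin dialdehyde, fell (change -0.28, limma adjusted p = 0.0456). The genes past the threshold are 50% of these 4, beside 54.8% of all genes (27.4% higher and 27.4% lower). The AKR7A3 call was lost without knockdown replicate 1 or 2 or control replicate 2 or 3, with adjusted p-values of 0.158, 0.0623, 0.133 and 0.117, and with median scaling, without the detection filter and with the replicate block. AKR7A2 (0.12) and AKR1D1 (-0.17) did not pass.

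**Figure D4:**
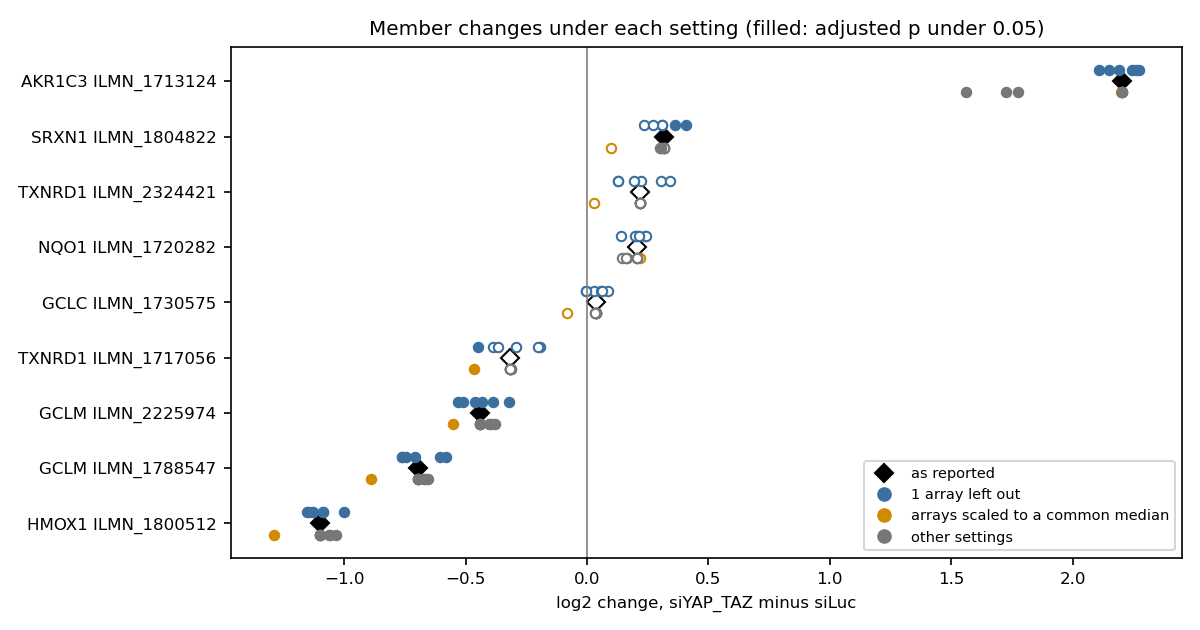
Log2 change, knockdown minus control (x axis), of each tested probe under every setting; the black diamond is the reported value, blue points leave out 1 array, orange points scale arrays to a common median, grey points are the other settings, and filled points passed an adjusted p of 0.05. AKR1C3, HMOX1 and the main GCLM probe keep their side of 0 and their call in each setting shown, and SRXN1 does not keep its call.

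The regulators of NRF2 were measured next, in a list of 16 genes of which 13 were tested. Of these 4 rose and 3 fell (7 of 13, 53.8%, beside 54.8% of all genes), with a median change of 0.24. That median was 0.13 without knockdown replicate 2 and 0.11 under median scaling, where the median of all genes was -0.11. NFE2L2 itself rose 1.33-fold, at 11.13, 11.03 and 11.09 in knockdown samples, against 10.58, 10.68 and 10.75 in control samples (change 0.41 ± 0.0966 SE, limma adjusted p = 0.0041). Under median scaling that change was 0.21, or 0.32 relative to all genes (adjusted p = 0.404). Before normalisation the NFE2L2 intensities were 1965, 1656 and 2002 in knockdown samples and 2033, 1723 and 2108 in control samples. The NFE2L2 rise is thus relative to the other genes on the arrays. Median scaling also took NFE2L3, TXNIP, MSRB3, SLC48A1, SESN2 and AKR7A3 below the threshold, in a fit with an SE of 0.19 for each. Relative to all genes their changes in that fit were, in this order, 0.43, 0.49, 0.29, 0.41, 0.47 and -0.32. The reported changes are 0.46, 0.61, 0.32, 0.33, 0.39 and -0.28. MAFG, a small MAF partner of NRF2, rose 1.75-fold, SQSTM1, an autophagy receptor that sequesters KEAP1, rose 1.56-fold, and the NRF2 relative NFE2L3 rose 1.38-fold. MAFF, another small MAF gene, fell 1.43-fold by its main probe, although its other probes ran from -0.72 to 0.08. GSK3B, a kinase that marks NRF2 for degradation, fell 1.43-fold and FBXW11, a ubiquitin ligase subunit that recognises that mark, fell 1.32-fold by its main probe, with 0.00083 for the other. The FBXW11 call was lost without the detection filter (adjusted p = 0.0566) and with the mean of its probes (-0.20, 0.0788). KEAP1 did not pass (change 0.25, 95% interval 0.0027 to 0.50, adjusted p = 0.084), and the BACH1 probe was not above background on any array.

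Among other NRF2 targets, more rose than fell. Of 28 listed genes 25 had a named probe, 19 were tested, 11 rose and 1 fell, with a median change of 0.51, or 0.32 with TRIM16 at its bound. The median was 0.17 without the detection filter, which let in the 6 listed genes that had a named probe but were not tested. Under median scaling the list median was 0.30, where the median of all genes was -0.11. The genes past the threshold are 63.2% beside 54.8% of all genes, of which 27.4% were higher and 27.4% lower. Under median scaling 6 rose and 1 fell, where 1438 of the 9718 genes rose and 2475 fell. TRIM16, above background on no control array, entered the test through the group in which it was high. ABCC2, an export pump for conjugates, rose 2.32-fold, EPHX1, an epoxide hydrolase above background on 1 of 3 control arrays, rose 2.29-fold, and TKT, a transketolase of the pentose phosphate pathway, rose 1.86-fold. CBR1, a carbonyl reductase, was the member that fell, by 1.47-fold. TXN and PRDX1, which encode thioredoxin and a peroxiredoxin, had changes of 0.04 and 0.00035 and did not pass.

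Glutathione metabolism held the largest number of calls among these lists. Of 23 genes tested, 13 rose and 5 fell (78.3% beside 54.8% of all genes), with a median change of 0.57, or 0.55 with GSTZ1 at its bound. The median was 0.21 without the detection filter, which let in the 5 listed genes that had a named probe but were not tested. Over all genes 27.4% rose and 27.4% fell. GSTZ1, above background on no control array, also entered the test through the group in which it was high. The glutathione transferase genes GSTT1, GSTA4 and GSTM1 rose 1.86-fold, 1.83-fold and 1.79-fold. GSTM genes are close copies, and the main probes of GSTM1 and GSTM2 differed by at most 0.07 on any array. GGCT, which releases amino acids from glutathione breakdown products, fell 1.98-fold and GLO1, which uses glutathione to clear methylglyoxal, fell 1.46-fold.

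Of the thioredoxin and peroxiredoxin genes tested, 3 of 13 were higher and 1 lower (30.8%, beside 54.8% of all genes) with a median change of -0.02. TXNRD2, the mitochondrial thioredoxin reductase, fell 4.01-fold, at 7.64, 7.24 and 7.92 in knockdown samples, against 9.30, 9.81 and 9.71 in control samples (change -2.01 ± 0.18 SE, limma adjusted p = 4.18e-06). MSRB2, a mitochondrial methionine sulfoxide reductase, rose 2.65-fold, TXNIP, an inhibitor of thioredoxin, rose 1.53-fold, and MSRB3, another methionine sulfoxide reductase, rose 1.25-fold. The MSRB3 call was lost without knockdown replicate 2 (0.25, adjusted p = 0.0643) or control replicate 1 (0.29, 0.0688).

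Heme and iron genes, the setting in which HMOX1 works, had 2 of 9 tested genes higher and 2 lower (44.4%, beside 54.8% of all genes), with a median change of 0.17. Under median scaling that median was 0.03, where the median of all genes was -0.11. The iron exporter gene SLC40A1, above background on 2 of 3 control arrays, rose 1.45-fold and the heme transporter gene SLC48A1 rose 1.25-fold by its main probe, with -0.40 for the other. ALAS1, the first enzyme of heme synthesis, fell 1.52-fold and TFRC, the transferrin receptor, fell 1.40-fold. The SLC48A1 call was lost without knockdown replicate 3 (0.27, adjusted p = 0.0759) or control replicate 2 (0.30, 0.0538). FTL, the ferritin light chain gene and a known NRF2 target, had a change of 0.0096 and did not pass.

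Genes that make or remove superoxide and peroxide had 4 of 7 tested members higher and 0 lower (57.1%, beside 54.8% of all genes, and 27.4% of all genes higher), with a median change of 0.61. Without the detection filter, which let in the 4 listed genes that had a named probe but were not tested, it was 0.28. SOD2, the mitochondrial superoxide dismutase, rose 3.27-fold, CYBA, a subunit of NADPH oxidases, rose 2.44-fold, and CAT, catalase, rose 1.81-fold. Genes of the ATF4 stress response, which shares HMOX1 and SLC7A11 as targets with NRF2, had 3 of 10 higher and 4 lower (70.0%, beside 54.8% of all genes), with a median change of -0.05. DDIT4, an inhibitor of mTORC1, rose 4.56-fold, CEBPB, a transcription factor, rose 1.98-fold, and SESN2, a leucine sensor, rose 1.31-fold. PHGDH, of serine synthesis, and ASNS, asparagine synthetase, fell 1.78-fold each, and TRIB3, a pseudokinase, fell 1.41-fold. The other ASNS probe had a change of -0.44. ATF4 itself fell 1.31-fold by its main probe (change -0.39, limma adjusted p = 0.0093), with -0.15 and -0.012 for its other probes. SESN2 was above background on 1 of 3 control arrays, and leaving out control replicate 1 put it at 0.30 (adjusted p = 0.0609). Over the 8 lists 41 of 98 tested genes rose and 17 fell, where 27.4% of all genes rose and 27.4% fell. Under median scaling 27 rose and 16 fell, where 1438 of the 9718 genes rose and 2475 fell.

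**Figure D5:**
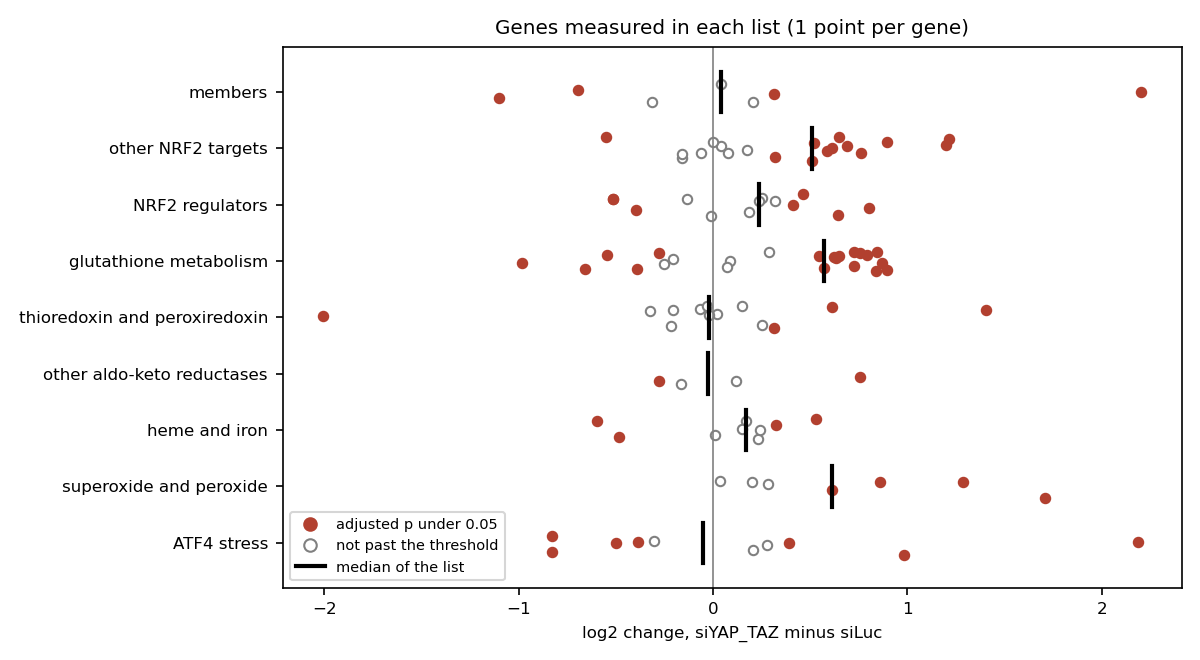
Log2 change, knockdown minus control (x axis), of every tested gene of the 10 (members) and of the 8 related lists (rows); red points passed an adjusted p of 0.05, open points did not, and black bars are list medians. Glutathione metabolism and the other NRF2 targets have medians of 0.57 and 0.51, while the members have 0.04. AKR1C3, TRIM16, GSTZ1 and AKR1C4 are drawn at fitted values, although their control arrays were at background.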

How the data were processed

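The deposited intensities are linear bead summaries, 1 value for each probe on each array, without control probes or detection p-values; the submitters' processing notes name BeadStudio without settings. The authors also deposited processed log2 values. When the intensities were quantile normalised and logged, 99.9% came out no more than 0.1 away from these.

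The analysis of the intensities used limma 3.58.1 under R 4.3.3. Background was corrected with normexp fitted to each array's own probes (saddle method, offset 16), because neqc needs control probes or detection p-values, followed by log2 and quantile normalisation. The mode of an array's log2 intensities (bandwidth 0.05) was taken as its background, the values below it, mirrored, as the spread, and a probe was called above background at p of 0.05. The 15899 probes above background on at least 3 of 6 arrays were tested with lmFit and eBayes, two-sided, without covariates, with Benjamini-Hochberg adjustment across all tested probes. Only the limma fit was tested on simulated data, drawn around normalised and filtered values with few probes changed. Background correction, normalisation and the detection filter were not simulated. Where a gene was above background on no array of a group, only a bound on the fold is given, from the bright group's mean over that of the dim group, which takes on each dim array the higher of the probe's value and the lowest value of any probe above background.

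Names came from the platform annotation, updated through Entrez identifiers: 30113 probes had 1 symbol, 8 had several and 17110 were unnamed here. Gene positions and promoters are from RefSeq (GRCh38.p14). The genes, the related lists and the tests were chosen with earlier results of these data known. Genes named from a related list were the 3 largest rises and falls past the threshold with groups that did not overlap, plus NFE2L2, KEAP1, BACH1, AKR1C2, YAP1 and WWTR1; other members of the lists were named after their values were seen. The alternatives were no background correction, an offset of 50, median scaling, no detection filter, detection on all 6 arrays, an intensity trend, replicate number as a block, the authors' values, the mean of a gene's probes and each array left out.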

Additional observations from a re-analysis of the deposited data

How the results depend on the processing

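HMOX1 and the main GCLM probe kept their direction and their call under the alternatives run on single probes (all but the mean of a gene's probes), with adjusted p-values of at most 9.5e-05 and 0.00594, and AKR1C3 did so under all that tested it. With arrays scaled to a common median, without the detection filter, with detection on all 6 arrays and with the replicate block, 1 of the 10 genes was higher in place of 2 (1 probe in place of 2). Detection on all 6 arrays left AKR1C3 out, and in the other 3 settings the call on SRXN1 was lost, at 0.10, 0.32 and 0.32, with adjusted p-values of 0.728, 0.169 and 0.0606. Leaving out single arrays gave 1 to 2 genes and probes higher, 0.24 to 0.41 for SRXN1, -0.45 to -0.19 for ILMN_1717056 of TXNRD1 (-0.47 and past the threshold with median scaling) and -0.0053 to 0.088 for GCLC. GCLC, which never passed, was at -0.083 with median scaling, or 0.02 relative to all genes. The other GCLM probe, at -0.44, missed the threshold without the detection filter, where its SE was larger and more probes entered the adjustment. Median scaling left 27 of the related genes higher in place of 41, 62.8% of calls in place of 70.7%, and over all genes 36.7% of calls were higher in place of 49.9% (1438 higher and 2475 lower, against 2658 and 2666). The median change of the members was -0.08 with median scaling and -0.32 with detection on all 6 arrays. Of the 39 other named genes, SLC48A1 changed sign, at -0.038 with the mean of its probes. For the changes in results that are not attributed here to fewer probes or arrays, the cause was not tested.

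The replicate numbers are shared by the groups, but no label ties a number to a shared day. Deviations of same-numbered samples correlated at -0.18, -0.13 and -0.015. Differently numbered samples were not compared, so these values cannot decide whether a number stands for a shared day. With the replicate block 2524 genes were higher and 2518 lower. Dim probes limit what can be said of NQO1, and nothing can be said of SLC7A11 and AKR1C1.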

Other observations

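Some aldo-keto reductase genes had probes that read very different signals on the same arrays. One of the 2 probes of AKR1D1, a bile acid synthesis gene, had intensities of 8908, 6959 and 8567 in knockdown samples and 10970, 10020 and 11800 in control samples. The other was not above background on any array, at 57.12, 70.47 and 59.05 in knockdown samples and 74.74, 64.91 and 76.53 in control samples. For AKR7A3 the intensities were 255.1, 275.1 and 311.8 in knockdown samples and 451.5, 410.7 and 467.4 in control samples by one probe, and 46.1, 61.35 and 54.47 in knockdown samples and 54.08, 47.11 and 57.88 in control samples by the other.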
